A study of Mus musculus with 4 samples.

Results

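Potassium channel genes were taken from the gene table of the series as every symbol that begins with Kcn, leaving out Kcnq1ot1, which is not a channel gene. This gave 98 of 32285 genes, 94 annotated as protein coding and 4 as antisense transcripts (Kcnab3os, Kcnd3os, Kcnmb4os1 and Kcnmb4os2). Nuclei of the lateral septum (LS), a forebrain region linked to anxiety, came from male mice of 6 to 8 weeks, with tissue of 3 mice pooled in each of 4 droplet libraries. The C57BL/6JNifdc background had 2 libraries, C57J 1 (labelled batch 1) and C57J 2 (batch 2). The BALB/c background had 1 library of BALB/c nude mice, which lack T cells, and 1 library of BALB/c mice with their T cells, both in batch 2. The labels name no treatment. Nude and BALB/c therefore have 1 pooled library each, and p-values below measure the spread between pooled libraries, not between mice. Within the BALB/c background that spread also holds the difference between nude and BALB/c. Within C57J it also holds the difference between the batches.

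Potassium channels let potassium leave or enter the cell down its gradient and so set the resting potential, shape the action potential and limit firing. Voltage-gated families (Kcna, Kcnb, Kcnc, Kcnd, Kcnh and Kcnq) open with depolarization, calcium-activated families (Kcnma, Kcnn) open with calcium, inward rectifiers (Kcnj) and tandem-pore channels (Kcnk) act near rest, and Kcnip, Kcnab and Kcnmb genes encode auxiliary subunits. In glia, inward rectifiers and tandem-pore channels are known for buffering the potassium that active neurons release.

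Levels are given as CPM, the raw UMIs (distinct RNA molecules) of a gene per 1000000 UMIs of a cell class in one library, and where 4 values are listed they belong to C57J 1, then C57J 2, then nude, then BALB/c. After quality limits and removal of predicted doublets, 10913 to 13075 nuclei per library remained, with a median of 4141 to 8473 UMIs per nucleus, highest in BALB/c. Pairs of libraries shared 29 to 63 barcodes. Clusters built without the Kcn genes gave 31318 neurons, 7618 astrocytes, 5347 mature oligodendrocytes (OLs), 1897 oligodendrocyte precursors (OPCs), 1337 microglia and 538 neuroblasts, named from marker genes. Neuron markers (Snap25, Rbfox3, Syt1, Gad1 and Gad2) were also counted in glia, at a median of 22.5% to 47.3% of their neuron level in astrocytes, 24.7% to 59.5% in OLs, 32.2% to 54.8% in OPCs and 36% to 72.9% in microglia, each time lowest in BALB/c. In neuroblasts their median was 58.9% to 78.5%. A glial level of a Kcn gene is therefore set beside the highest of these markers in the same library, and the part of neuronal RNA in glial levels was not tested. Because the classes come from clustering the same nuclei, levels across classes and neuron types are a description without a test.

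Every member had at least 1 UMI, 19 had fewer than 100 UMIs in all nuclei, and 61 reached 10 CPM in some class and library. Among the 61, Kcnj11, Kcnu1 and Kcnv1 did so only in neuroblasts, where 3 UMIs are 5.84 to 15.1 CPM. Together the 98 genes made up 13306, 13067, 12873 and 13006 CPM of neurons. They made up less in astrocytes, from 5665 to 7248 CPM, and nearly as much in OPCs, from 11322 to 11550 CPM. Striatal neurons, which were captured with the LS, held the most, 19704, 19271, 19649 and 20586 CPM, against 11295 to 11648 CPM in LS neurons. Of the 61 genes, 35 had the same highest class in all 4 libraries (57.4%, beside 41.7% of all genes at that level), 14 of them in neurons, 8 in OPCs, 4 in astrocytes and 3 each in OLs, microglia and neuroblasts. For 27 (44.3%, beside 29.4%) the range of the highest class lay above all others. The rule of at least 10 CPM and at least 2 times the second class in every library was met by 8 of the 61 genes, or 13.1%, beside 11.0% of all 13775 genes that reached 10 CPM. The share among the Kcn genes was thus close to that among all genes.

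Levels of different genes are compared per length, and the order depended on which length was used. In neurons Kcnip4 led by CPM (3099 CPM over a span of 1135 kb), followed by Kcnd2 with 1838 CPM. Per kb of gene span, Kcna1 came first with 9.45 CPM per kb, Kcnip2 followed with 4.08, and Kcnd2 and Kcnip4 had 3.57 and 2.73 CPM per kb. On the same scale the first gene was Kcnj10 in astrocytes (4.90 CPM per kb), Kcna1 in OLs (45.8), Kcnd2 in OPCs (7.88) and Kcnk6 in microglia (6.89). Per kb of exon the order changed. Kcnip4 and Kcnd2 came first in neurons (854 and 357 CPM per kb of exon), where Kcna1 had rank 22 with 11.8. Kcnd2 came first in astrocytes (328) and OPCs (787), and Kcnip4 in OLs (233) and microglia (349). Kcnj10 had rank 8 in astrocytes, Kcna1 rank 5 in OLs and Kcnk6 rank 11 in microglia. As a share of its neuron level, Kcnip4 did not exceed the highest neuron marker in OLs (10.04% to 44.15%) or microglia (15.19% to 63.53%) of any library. Of the classes named here, OPCs alone had the same first gene, Kcnd2, by both lengths.

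Kcnj10 and Kcnj16 encode the inward rectifier subunits that carry potassium uptake in astrocytes. Kcnj10 (ENSMUSG00000044708, GRCm38 chromosome 1, 172341210 to 172374085, plus strand) stood at 137.8, 128.5, 165.4 and 212.6 CPM in astrocytes. It was the next highest in OLs, at 113.3, 87.8, 101.7 and 161.3 CPM, and stayed between 6.6 and 11.6 CPM in neurons. The astrocyte level was the higher of the pair in every library. Kcnj16 was lower, with 27.2, 26.5, 30.7 and 43.5 CPM in astrocytes. It was lower in OPCs in every library (24.3, 24.4, 19.4 and 27.7 CPM), with the smaller gaps in the C57J libraries, and between 1.1 and 1.9 CPM in neurons. Kcnk2, a mechanosensitive tandem-pore channel, had 184, 186, 184.7 and 217.5 CPM in astrocytes against 43.2 to 51.7 CPM in neurons. As a share of their neuron level, these 3 genes exceeded the highest neuron marker in astrocytes of every library.

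OLs were set apart by voltage-gated genes. Kcna1, whose channel repolarizes axons, had 225, 233.2, 246.6 and 392.1 CPM in OLs and 44.0 to 73.3 CPM in neurons. Its ratio to the second class of each library was at least 3.64. Kcna6, of the same family, had 155.5, 122.9, 128.3 and 146.2 CPM in OLs and 47.2 to 61.4 CPM in OPCs, the second class. Kcnq3, a subunit of the M-current that restrains repetitive firing, had 830.2, 805.8, 888.1 and 1171 CPM in OLs and 370.2 to 415.6 CPM in neurons. It had the highest CPM of the 3 before any scaling by length. Per kb of gene span Kcna1 (rank 1) and Kcna6 (rank 3) stood above it in OLs. All 3 genes lay above the highest neuron marker in OLs of every library, at 437.1% to 534.7% (Kcna1), 381% to 513.4% (Kcna6) and 196.7% to 315.3% (Kcnq3) of their neuron level. BALB/c was the highest library for Kcna1 and Kcnq3 and the lowest for the neuron markers.

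In OPCs Kcnd2, Kcnip3 and Kcnh8 stood above all other classes, with all neurons taken as a whole. Kcnd2, the pore subunit of the fast-inactivating A-type current, had 4308, 3752, 3956 and 4198 CPM in OPCs, against 1710 to 2078 CPM in neurons. Astrocytes had 1699, 1602, 2006 and 1457 CPM and were the second class in nude. The ratio to the second class fell just under the 2 times rule in that library only (1.97). Kcnip3, which encodes a calcium-binding partner of Kcnd channels, had 467.4, 628.2, 360.8 and 502.2 CPM in OPCs and 72.6 to 144.5 CPM in astrocytes, the second class. Kcnh8 (ENSMUSG00000035580, GRCm38 chromosome 17, 52602709 to 52979194, plus strand), of the ether-a-go-go-like family, had 367, 362.8, 363.9 and 466.6 CPM in OPCs and 83.0 to 175.1 CPM in neuroblasts. Ranges of OPCs and of all other classes, with neurons as a whole, did not overlap for these 3 genes. Striatal neurons on their own held more Kcnd2 than OPCs in every library, at 4671, 4358, 4658 and 4813 CPM. Kcnip4, another partner of Kcnd channels, was lower in OPCs (709.7, 941.4, 1030 and 325 CPM) than in neurons (2948 to 3187 CPM).

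Microglia held the gene with the highest ratio to the second class. Kcnk6, a tandem-pore channel gene, had 91.1, 52.1, 46.5 and 101.9 CPM in microglia, and at most 6.6 CPM in any other class, a ratio of at least 13.7 in every library. Kcnk13, the tandem-pore channel known for setting potassium efflux in microglia, had 236.5, 152.6, 174.4 and 314.5 CPM there and almost as much in OLs (177.4, 197.1, 184.4 and 206.8 CPM). These ranges overlapped, so neither class was the higher in all libraries. Kcna3 and Kcnn4, channels described in activated microglia and lymphocytes, were at or near 0: Kcna3 had no UMI in microglia of any library, which allows up to 3.73 to 5.81 CPM (3 counts), and Kcnn4 had 0, 3.72, 0 and 2.49 CPM. Kcnj8 and Kcnj11 encode the pores of ATP-sensitive channels. Kcnj11 had 2.6 to 3.9 CPM in neurons, and Kcnj8 was at or under 1.86 CPM in each of these 6 classes.

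**Figure D1:**
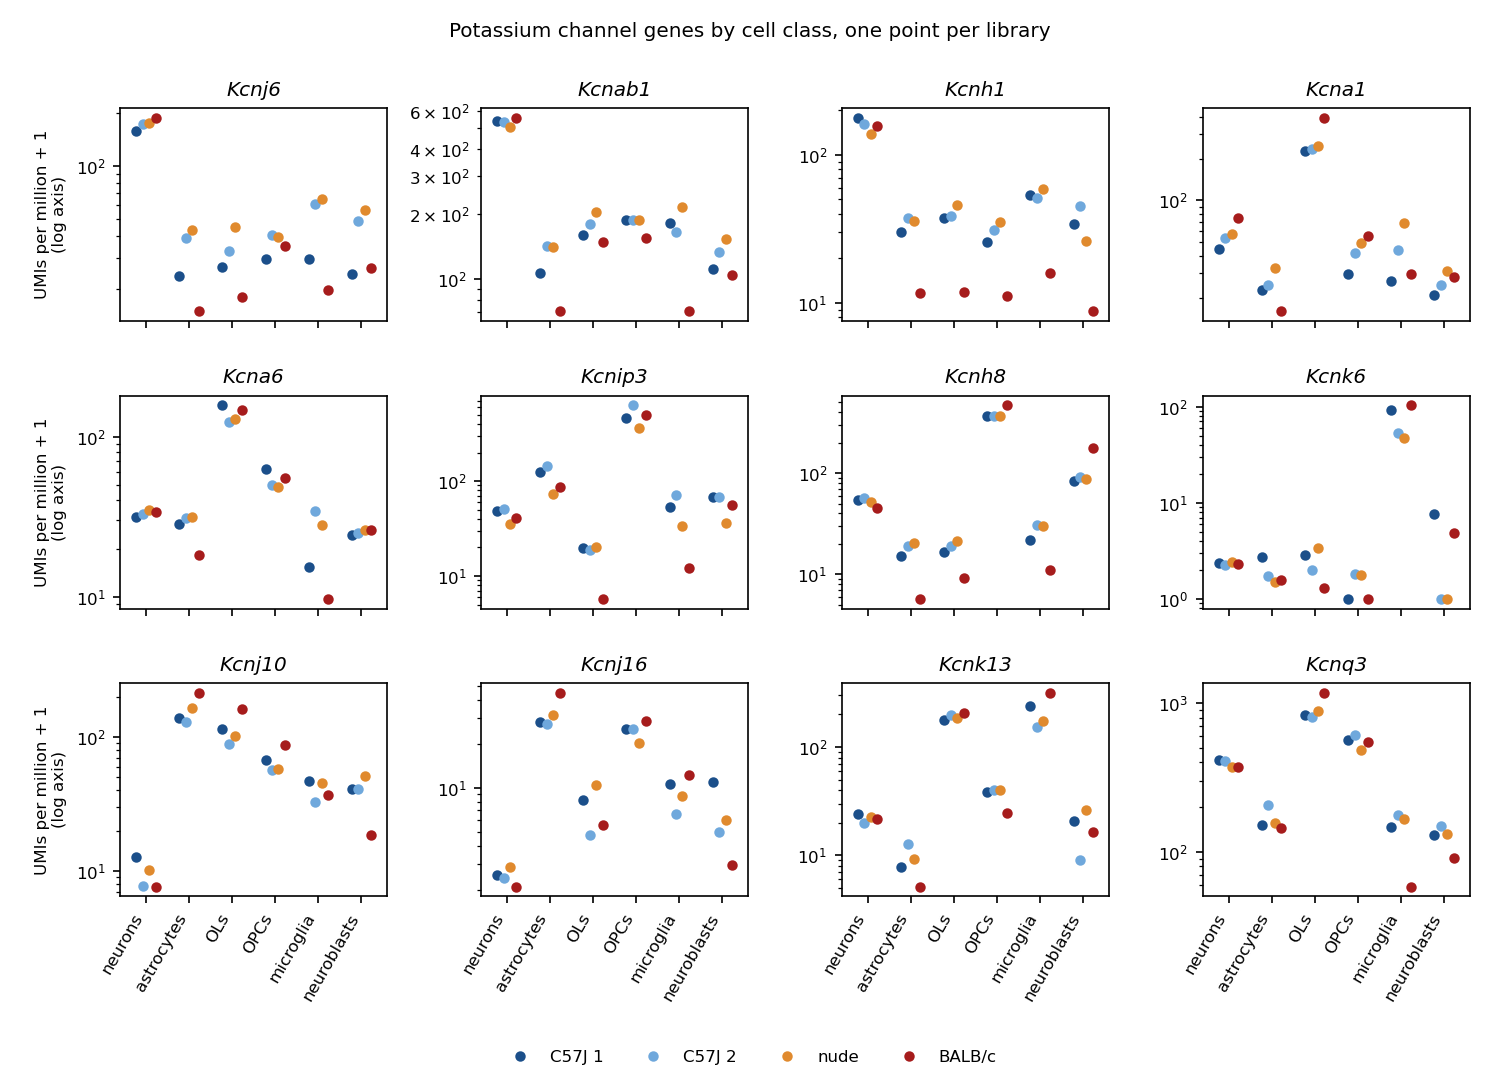
Level of 12 Kcn genes (UMIs per 1000000 plus 1, log axis with its own range in each panel) in 6 cell classes, with 1 point per library. Kcnk6 stood at 46.5 to 101.9 CPM in microglia, and Kcna1 at 225 to 392.1 CPM in OLs, each above all other classes in all 4 libraries.

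Promoter sequences are shown for Kcnj10, highest in astrocytes with OLs next and overlapping, and for Kcnh8, highest in OPCs. Kcnk1 is added, as its astrocyte level differed most between strain backgrounds below. They are RefSeq sequences of GRCm38.p6, 250 bases before to 50 bases after the gene start, on the plus strand, in lower case with each CG dinucleotide in capitals. The windows lie at chr1:172340960-172341259 (Kcnj10), chr17:52602459-52602758 (Kcnh8) and chr8:125994852-125995151 (Kcnk1). The Kcnk1 window ends before the Kcnk1 start of 125995170 given below, so it was placed on another start of this gene.
Kcnj10: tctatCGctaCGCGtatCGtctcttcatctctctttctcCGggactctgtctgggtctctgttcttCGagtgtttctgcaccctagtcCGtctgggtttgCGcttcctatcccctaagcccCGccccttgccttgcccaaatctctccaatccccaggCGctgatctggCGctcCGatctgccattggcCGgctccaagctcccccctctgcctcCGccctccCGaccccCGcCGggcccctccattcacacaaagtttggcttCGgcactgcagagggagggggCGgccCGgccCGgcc
Kcnh8: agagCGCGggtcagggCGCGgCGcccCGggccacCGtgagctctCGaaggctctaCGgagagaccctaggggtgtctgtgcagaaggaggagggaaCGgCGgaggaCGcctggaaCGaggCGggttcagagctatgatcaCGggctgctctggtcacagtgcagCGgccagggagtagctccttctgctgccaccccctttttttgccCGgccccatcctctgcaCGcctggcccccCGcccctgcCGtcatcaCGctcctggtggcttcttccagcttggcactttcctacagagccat
Kcnk1: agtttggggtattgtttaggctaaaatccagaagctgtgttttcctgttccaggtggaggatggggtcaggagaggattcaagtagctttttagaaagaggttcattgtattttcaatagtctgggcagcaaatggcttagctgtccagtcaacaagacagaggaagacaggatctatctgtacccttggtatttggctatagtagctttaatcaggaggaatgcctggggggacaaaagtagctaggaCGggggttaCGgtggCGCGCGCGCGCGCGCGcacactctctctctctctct
Kcnj10 and Kcnh8 held 21 CG dinucleotides each and the letters GGGCGG, a GC box. In Kcnj10 these letters stood on both strands, and in Kcnh8 on 1 strand. Kcnk1 held 10 CG dinucleotides and no GC box. Of the 98 genes, 71 matched the promoter table, with 96 windows. GGGCGG was searched on both strands and was present in 47.9% of member windows and 35.7% of all 32851 windows, TATAAA in 5.21% and 13.6%, and the median number of CG dinucleotides was 9 and 7. None of the 3 printed windows held TATAAA. A match is a run of letters and not a bound site.

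Neurons led for 14 genes in all libraries, and 3 of these met the 2 times rule. Kcnj6, a subunit of the G-protein-gated inward rectifier that mediates slow inhibition by transmitters, had 157.7, 171.9, 175.9 and 187.7 CPM in neurons. Microglia were next by the mean over libraries, with 18.6 to 63.9 CPM. OPCs were next in BALB/c (34.2 CPM) and level with microglia in C57J 1 (28.8 CPM each). Kcnab1, an auxiliary subunit of Kcna channels, had 539.2, 529.3, 502.1 and 557 CPM in neurons, and Kcnh1, of the ether-a-go-go family, 177, 161.1, 137.5 and 156.6 CPM. Kcnj3, the common partner of Kcnj6, was at 376.8, 388, 411.3 and 393.6 CPM, while Kcnj9, of the same complex, was at 10.1, 11.8, 15.3 and 15.7 CPM. Among the calcium-activated genes Kcnma1, the large-conductance channel, had 973.1, 921.3, 975.5 and 1134 CPM in neurons. Kcnn2 and Kcnn3 encode small-conductance channels of the afterhyperpolarization and stood at 303.1 to 419.3 and 168.2 to 174.2 CPM, and Kcnn1 at 1.71 to 2.95 CPM. Kcnn2 had 370.1 to 647.7 CPM in astrocytes, above neurons in every library but nude. Of the fast delayed rectifiers, Kcnc1 had 72.1 to 86.9 CPM and Kcnc2 218.9 to 236.5 CPM in neurons. Kcnc1 was higher in neuroblasts (72.0 to 101.0 CPM) in every library but BALB/c, on only 27, 20, 20 and 37 UMIs there. The gap was small in C57J 2 (79.7 against 73.8 CPM). Kcnt1 and Kcnt2, which encode sodium-activated channels, had 76.3 to 108.7 and 305.6 to 426.5 CPM in neurons. In astrocytes Kcnt1 had 84.6, 83.0, 67.6 and 170.7 CPM, above neurons in C57J 2 and BALB/c. Kcnh7 had 411.6 to 557.1 CPM in neurons and more in neuroblasts (509.8 to 770.6 CPM) in every library but C57J 2. Kcnq5, of the M-current family, had 1154 to 1458 CPM. Kcna2, a partner of Kcna1, was higher in OLs (51.1 to 78.9 CPM) and astrocytes (51.8 to 69.4 CPM) than in neurons (26.6 to 41.0 CPM) in every library.

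Neurons divided into 26 clusters, of which 23 held enough UMIs in every library to be described: 14 of LS neurons, 6 of other neurons, 2 of striatal neurons and 1 of cholinergic neurons, each called by 2 of its genes. Of 64 genes that reached 10 CPM in a type, 27 had the same highest type in all 4 libraries, or 42.2% against 18.7% of all 13026 genes that reached 10 CPM. The range of the highest type lay above all others for 16 of the 64 genes (beside 9.23% of all genes). Of the 27, 6 were highest in the Rarb Adora2a type (striatal neurons with the adenosine receptor gene Adora2a), 4 in the Lhx6 Tmem132c type and 3 in the Foxp2 Drd1 type. The 2 times rule was met by 4 genes, 6.25% of the 64 beside 1.78% of all genes, and no test of the difference was made. Of the 59 genes whose mean in the highest type was at least 10 CPM, 5 had no UMI in their lowest type. For Kcnh3, Kcnj2, Kcnj4 and Kcns3 that type was the cholinergic Chat Lhx6 type. It held the fewest UMIs of the described types, and 3 UMIs there are 3.55 to 10.5 CPM. For the other 54 genes the median ratio of the highest to the lowest type was 10.4. This ratio was not taken over all genes.

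Kcna4, an A-type member of the Kcna family, had 79.6, 76.8, 83.0 and 111.2 CPM in the Rarb Adora2a type, and the second type, Nts Sst, had 21.1 to 36.7 CPM. Kcnab3, an auxiliary subunit, was highest in the Lhx6 Tmem132c type with 16.9, 20.8, 19.9 and 24.1 CPM, next to 2.4 to 7.0 CPM in the Lhx6 Sst type, and it shares its locus with the antisense gene Kcnab3os. These were 2 of the 4 genes that met the rule.

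The abundant genes of the A-type current also differed between types. Kcnd2 was highest in the Foxp2 Drd1 type with 6389, 6204, 6860 and 6957 CPM and lowest in the Met Ddr2 type of the LS with 399 to 605.9 CPM. Kcnip4, its auxiliary subunit, had its highest mean in the Lhx6 Tmem132c type (11429, 11738, 10265 and 8785 CPM) and was also lowest in the Met Ddr2 type (131.8 to 412 CPM). Over the 23 types the Spearman correlation of Kcnd2 and Kcnip4 was 0.661 to 0.698 in the 4 libraries, while that of Kcnd3 and Kcnip4 was -0.409 to -0.18. These coefficients describe types of the same 4 libraries and carry no p. Kcnj3 and Kcnj6 gave 0.484 to 0.573, Kcnj3 and Kcnj9 -0.473 to -0.374, and Kcna1 and Kcna2 -0.527 to -0.307.

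The Kcnc genes were high in the Lhx6 types. Kcnc2, a channel of fast-spiking neurons, had 1292, 1221, 1160 and 1493 CPM in the Lhx6 Sst type, 1181 to 1279 CPM in the cholinergic Chat Lhx6 type and 15.3 to 35.7 CPM in the Col6a3 Met type of the LS. The order of the first 2 types was not the same in all libraries. Kcnc1 was highest in the Lhx6 Tmem132c type with 174.6, 171.4, 163.1 and 207.9 CPM. In the striatal Rarb Adora2a type Kcnq5 had 5348, 4729, 5177 and 5228 CPM and Kcnk2 197.5, 186.3, 180.7 and 174.1 CPM, whereas this type was the lowest of all for Kcnn2 (76.8 to 97.7 CPM), Kcnj3 (53.0 to 105.8 CPM) and Kcnj6 (9.6 to 16.3 CPM).

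Within the LS the Col6a3 Met type led for Kcnj6 (401.3, 398, 384.1 and 414.9 CPM) and for Kcna1 (78.9, 90.0, 115.9 and 149.8 CPM), and the Cpa6 Otx2os1 type led for Kcnj3 (943.9, 788.4, 936 and 1131 CPM). Kcnk9, an acid-sensitive tandem-pore channel, was highest in the Pax6 Tmem132c type, with 81.3, 115.5, 124.2 and 113.8 CPM. Kcnn3 had 447 to 565 CPM in the Dach2 Crhr2 type and 469.7 to 526.7 CPM in the Col6a3 Met type, which overlapped. Kcnk1 varied little between types, from a mean over 4 libraries of 17.5 CPM in the Nts Sst type to 33.4 CPM in the Otx2os1 Esr1 type.

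**Figure D2:**
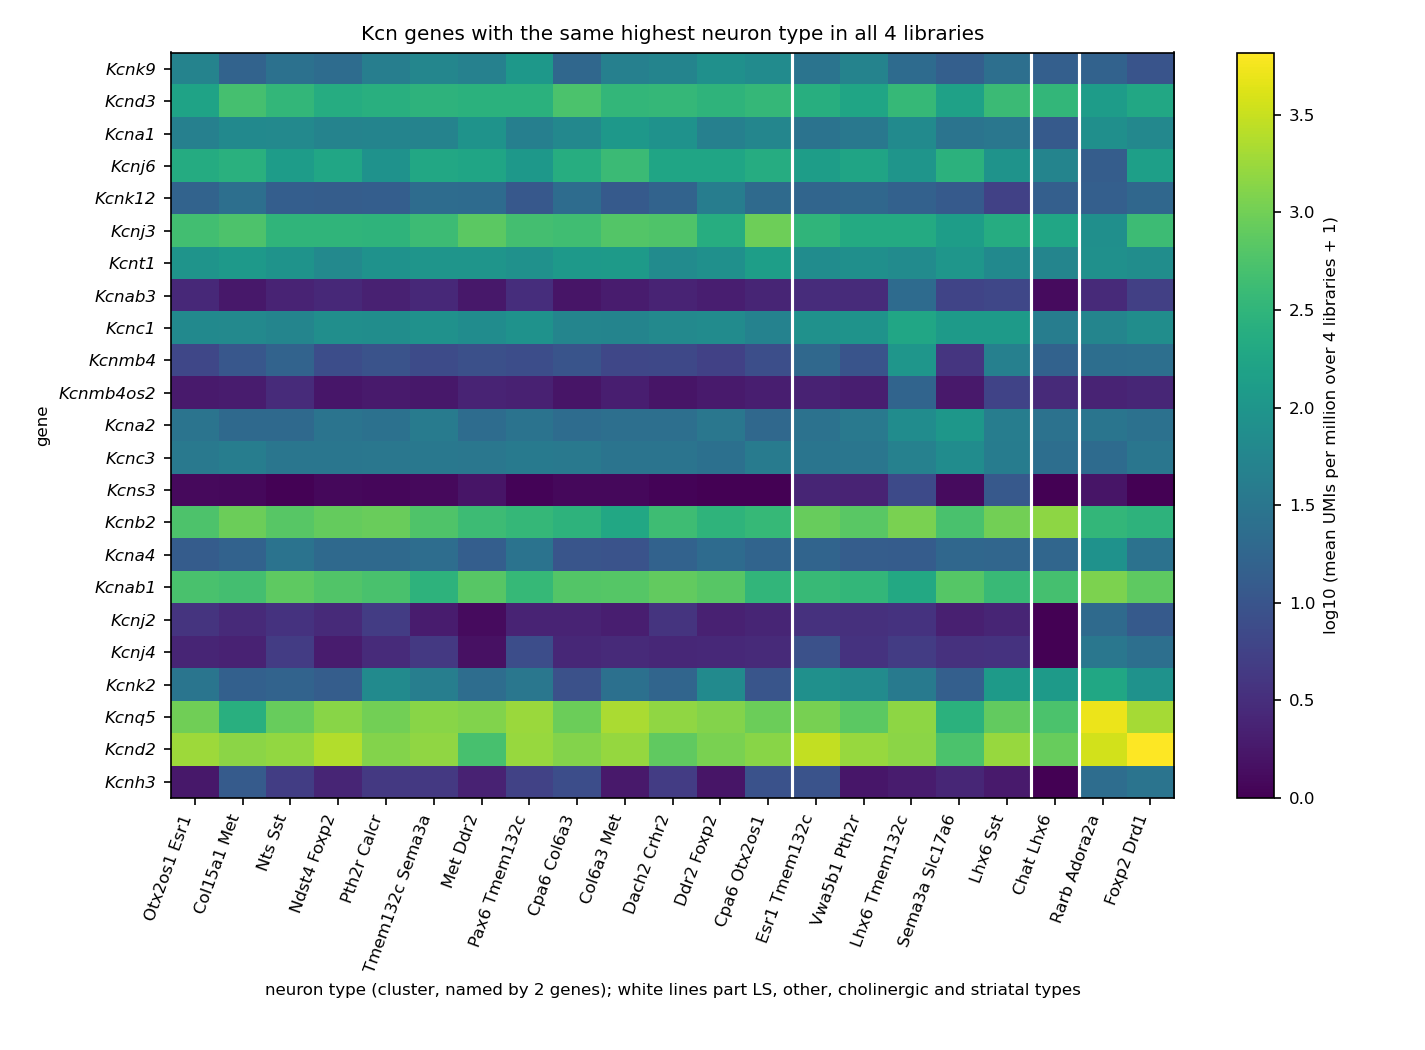
Mean level over 4 libraries (colour, log10 of UMIs per 1000000 plus 1) of 23 Kcn genes whose highest neuron type was the same in all 4 libraries, in 21 neuron types set out as LS, other, cholinergic and striatal types. Kcnd2 and Kcnq5 reached their highest means, 6603 and 5120 CPM, in the striatal columns at the right.

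The contrast of the C57J libraries with nude and BALB/c asked how strain background goes with channel expression, and was made on UMIs summed per library and class with edgeR's quasi-likelihood test over all genes (2 libraries against 2). Calls needed a log2 fold change beyond 0.5 together with an adjusted p (Benjamini-Hochberg) under 0.05. In neurons, 0 of 83 members tested were called, beside 1.83% of all 19655 genes tested, 17 members and 2826 of all 19655 genes had an unadjusted p under 0.05, and DESeq2 called 3 (Kcnj9, Kcnk9 and Kcnh3). The median log2 fold change of the members and of all genes was -0.01. The libraries of the backgrounds did not overlap for 36 of the 83 members and for 45.2% of all genes. They did not overlap for 39 members in LS neurons (45.4% of all genes), 25 in striatal neurons (38.4%), 18 in astrocytes (37.8%), 7 in OLs (33.2%), 17 in OPCs (37.2%) and 9 in microglia (33.2%). In LS neurons 1 of 81 members was called (2.27% of all genes), and in striatal neurons 1 of 64 (0.528%). No member was called in astrocytes (0 of 65, beside 0.0567% of all genes), OLs (0 of 58, 0.00793%), OPCs (0 of 44, 0.422%) and microglia (0 of 40, 0%), where DESeq2 called 1 member in astrocytes (Kcnk1) and 0 in the other 3 classes. An unadjusted p under 0.05 was found for 6 members in astrocytes (1028 of all 14118 genes), 0 in OLs (667 of 12604), 7 in OPCs (850 of 10910) and 3 in microglia (427 of 8995). Of 23 partner genes of these channels fixed as a list, 14 to 21 were tested in each class and 0 were called.

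Kcnk9 rose in LS neurons of the BALB/c background. The C57J libraries held 33.5 and 31.6 CPM, nude held 46.3 CPM and BALB/c held 52.9 CPM. The log2 fold change was 0.63 ± 0.11 (SE, adjusted p = 0.0431, edgeR). Here and below, the SE was derived as the size of the log2 estimate over the square root of the F statistic of the test. Both libraries of the BALB/c background lay above both C57J libraries. The adjusted p was 0.0957 without nude and 0.335 without BALB/c. The same gene gave 28.2, 14.9, 11.8 and 9.9 CPM in striatal neurons, where the log2 fold change was -1.03 ± 0.34 (adjusted p = 0.345), and the difference between the classes was not tested.

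Kcnq3 fell in striatal neurons, where its 4 levels were 568, 557.4, 318.8 and 342.4 CPM. The log2 fold change was -0.73 ± 0.11 (adjusted p = 0.0338, edgeR). In both described striatal types the C57J libraries were also above the other pair, with 580.4, 584.6, 295.4 and 312.7 CPM in the Rarb Adora2a type and 663.4, 557.4, 357.9 and 448 CPM in the Foxp2 Drd1 type. The adjusted p was 0.202 without C57J 1, which leaves batch 2 alone, and 0.083 without C57J 2. Striatal neurons made up 18.5%, 9.22%, 5.50% and 6.52% of neurons, and a further striatal cluster, Tac1 Isl1, held 312 of its 409 nuclei in C57J 1. The part of this makeup in the result was not tested. In LS neurons Kcnq3 had 355.1, 351.3, 331.7 and 348.9 CPM.

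Kcnn2 passed the adjusted p but not the fold limit. In neurons its levels were 303.1, 315.0, 419.3 and 391 CPM (log2 fold change 0.41 ± 0.07, adjusted p = 0.0427), and in LS neurons the log2 fold change was 0.40 ± 0.07 (adjusted p = 0.0378, edgeR). Both libraries of the BALB/c background were above both C57J libraries in 19 of the 23 neuron types and below in 0. The adjusted p in neurons ranged from 0.0218 without C57J 2 to 0.155 without nude, and it was 0.0522 without C57J 1 and 0.125 without BALB/c.

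The largest rises in neurons among members whose libraries did not overlap were those of Kcnk7, Kcnn1, Kcnk9, Kcnj9 and Kcna1, with log2 fold changes of 0.45 to 1.07 and adjusted p of 0.0915 to 0.381. Kcnj9 had 10.1, 11.8, 15.3 and 15.7 CPM and was above in 15 types and below in 0. Kcna1 had 44.0, 52.4, 56.4 and 73.3 CPM and was above in 14 types and below in 0. Kcnk7 had only 0.215 to 0.669 CPM and Kcnn1 1.71 to 2.95 CPM. Among the 5 largest falls were those of Kcnv2, Kcnh3, Kcns1 and Kcnj4, with log2 fold changes of -1.26 to -0.65 and adjusted p of 0.169 to 0.52. These 4 were low, with Kcnh3 the highest at 9.09, 5.70, 3.98 and 3.64 CPM. Kcnh3 and Kcnj4 were highest in the striatal types, and the share of striatal neurons was also highest in C57J 1. Within striatal neurons Kcnh3 had 35.81, 27.87, 20.01 and 22.95 CPM, and Kcnj4 had 29.38, 27.56, 18.65 and 41.8 CPM. Kcnh3 was below in 10 types and above in 0, and Kcnj4 was below in 10 and above in 1. The part of the striatal share in these falls was not tested.

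Kcnh7, of the ether-a-go-go-related family, was below in 19 types and above in 0, with 464.5, 482.8, 381.6 and 324.2 CPM in LS neurons (adjusted p = 0.0754, edgeR). It was chosen for mention by this count after its values were seen, as were Kcnip3 and Kcnt2. Kcnip3 was below in 15 types and above in 1. The neuron log2 fold change of Kcnip3 was -0.37 ± 0.11 (adjusted p = 0.186), and that in astrocytes -0.68 ± 0.18 (123.8, 144.5, 72.6 and 85.3 CPM, adjusted p = 0.423). Kcnt2 was below in 13 types and above in 0. The types share their 4 libraries and are not replicates of a background.

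**Figure D3:**
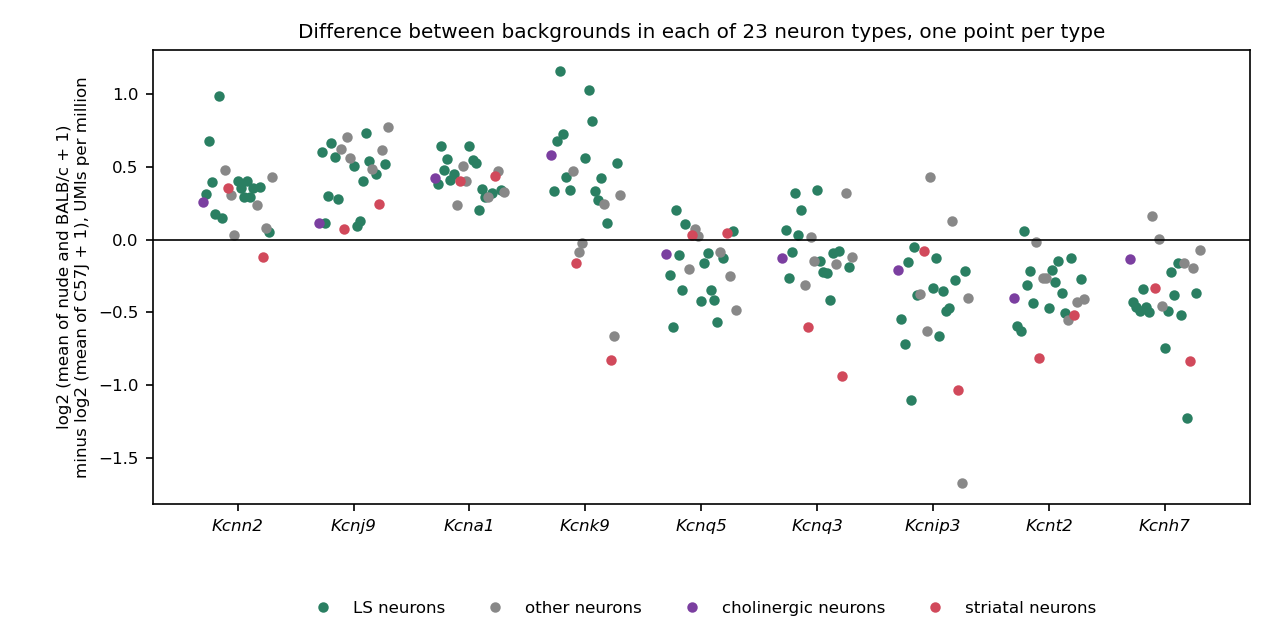
Difference between backgrounds (log2 of the mean of nude and BALB/c plus 1 minus that of the C57J libraries plus 1, in UMIs per 1000000) for 9 Kcn genes, with 1 point per neuron type coloured by class. Points of Kcna1 and Kcnj9 lie above 0 in all 23 types, and those of Kcnh7 lie below 0 in all but 2.

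Kcnk1, a tandem-pore leak channel, had the largest fold difference between backgrounds among the members tested that reached 10 CPM, over all 7 classes tested. The gene (ENSMUSG00000033998) lies at GRCm38 chromosome 8, 125995170 to 126030685, plus strand. In astrocytes its levels were 79.8, 57.8, 10.3 and 15.3 CPM. The libraries of the backgrounds were far apart, with a log2 fold change of -2.32 ± 0.28, but the gene was not called (adjusted p = 0.0849, edgeR). DESeq2 called it (adjusted p = 1.93e-07), as did edgeR with no filter on low counts (2.86e-12), without nude (0.00588) and without BALB/c (0.0114), whereas the adjusted p was 0.719 without C57J 1 and 0.331 without C57J 2. In neurons Kcnk1 had 23.9, 22.4, 21.8 and 28.7 CPM, a log2 fold change of 0.15 ± 0.16 (adjusted p = 0.762).

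The difference between astrocytes and neurons in the effect of background was tested by an interaction in edgeR with the library as block. For Kcnk1 it was -2.45 ± 0.21 on the log2 scale (adjusted p = 0.0351), and Kcnk1 was the only member that passed among the pairings of neurons with astrocytes (0.0207% of all genes passed), OLs (0.00531%) and OPCs (0.607%). The value was -2.64 to -2.27 without each library in turn, with an adjusted p of 1 without C57J 1 and 0.546 without C57J 2. For OLs and OPCs the interaction of Kcnk1 was -0.46 ± 0.39 (adjusted p = 1) and -0.48 ± 0.25 (adjusted p = 0.801).

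The astrocyte level of Kcnk1 came to 334.5% and 257.3% of its neuron level in the C57J libraries, above all 5 neuron markers. It came to 47.2% in nude, beside a median of 47.3% for the neuron markers, and to 53.3% in BALB/c, beside a median of 22.5% and a highest marker of 41.2%. All 3 astrocyte clusters had lower values in nude than in either C57J library. The largest cluster, led by Emx2os, had 91.8, 64.3, 10.95 and 10.9 CPM, and the B230323A14Rik cluster 55.9, 55.8, 8.2 and 17 CPM. In the Thbs4 cluster, with 47.5, 34.95, 11.2 and 34.6 CPM, BALB/c was close to C57J 2. Kcnj10 had higher values in the BALB/c background in the same astrocytes, with a log2 fold change of 0.58 ± 0.19 (adjusted p = 0.588, edgeR). The reads were aligned to the C57BL/6J-based reference for both backgrounds, and the part of sequence differences in these levels was not tested.

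**Figure D4:**
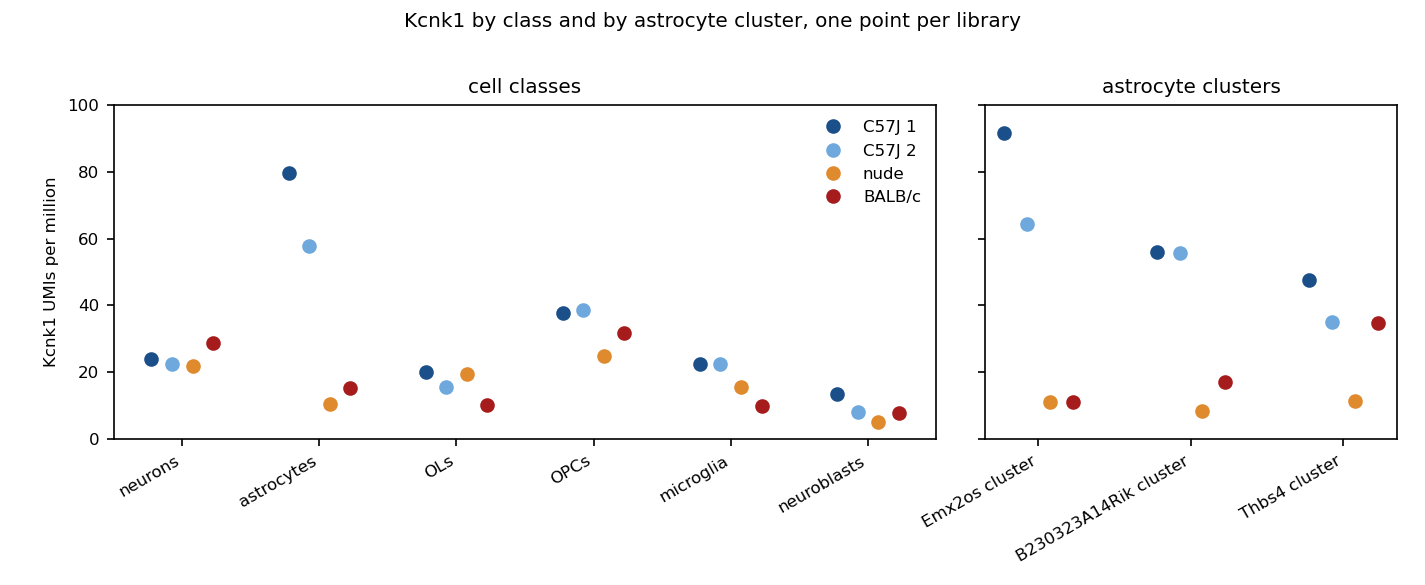
Kcnk1 level (UMIs per 1000000) in 6 cell classes and in 3 astrocyte clusters, with 1 point per library. In astrocytes the C57J libraries stood at 79.8 and 57.8 CPM and the libraries of BALB/c background at 10.3 and 15.3 CPM, while the 4 neuron values lay between 21.8 and 28.7 CPM.

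Nude and BALB/c mice share a background and differ in their T cells, with 1 library each, so the values are given without a test. Among Kcn genes at 10 CPM or more in either library, 0 of 44 differed by more than 2 times in neurons (0.259% of all genes) and 0 of 42 in LS neurons (0.274%). In striatal neurons, of 51 genes, 4 were higher in nude and 4 in BALB/c (3.06%). In glia the genes past 2 times were mostly higher in nude, 15 of 41 in astrocytes with 1 higher in BALB/c (7.55%), 24 of 41 in OLs with 0 (13.5%), 4 of 43 in OPCs with 0 (5.91%) and 24 of 49 in microglia with 3 (23.9%). Among them were, in astrocytes of nude and BALB/c, Kcnq5 (391.8 and 118.7 CPM) and Kcnip4 (1217 and 417.3 CPM), and the neuron markers moved with them, with a median of 47.3% in nude and 22.5% in BALB/c astrocytes. Kcnj10, which lay above the neuron markers, had 165.4 and 212.6 CPM in astrocytes of nude and BALB/c, and Kcnk6 46.5 and 101.9 CPM in microglia. The part of neuronal RNA in these differences was not tested.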

How the data were processed

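Single-nucleus RNA was measured in 4 libraries, each of 3 pooled mice. The authors deposited raw UMI counts per gene and nucleus, made per the labels with Cell Ranger 7.0.1 against mm10. Whether intronic reads were counted is not given in the sources used here. Nuclei with over 200 and under 6000 genes, over 300 and under 50000 UMIs and under 2% mitochondrial UMIs were kept, and simulated-doublet scores removed 0.8% per 1000 nuclei. Clusters came from 3000 variable genes without Kcn genes, 40 components, 6 neighbours per library and Leiden resolution 1 (leidenalg 0.10.2, Python 3.11.15). Neuron types needed 200000 UMIs in every library. Counts summed per library and class were tested with edgeR 4.0.16 (quasi-likelihood, TMM, low-count filter, Benjamini-Hochberg) in R 4.3.3, with DESeq2 1.42.0 as an alternative. Tests were checked on simulated data, which recovered 90% (neurons, 19655 genes) and 95% (astrocytes, 14118 genes) of changes of 2 on the log2 scale. Of changes of 1 they recovered 61% and 31%. Unchanged genes called were 4 in neurons and 8 in astrocytes. The simulated spread between libraries followed the fitted trend, without the spread particular to single genes, so recovery in the real data may be lower. Depth was 72912922 to 125998527 UMIs per library, and intervals cover counting error only. Genes were named by fixed rules: past 2 times the second class or type at 10 CPM, called between backgrounds, the 5 largest rises and falls in neurons, and a list by role. The members and lists were chosen with earlier results of these data known. Other settings tried were RLE scaling, no filter, the adjusted p alone, doublets kept, stricter nucleus limits, another resolution and seed, and leaving out each library. Antisense members share their locus with sense genes and are uncertain. Some members and neuron types are not reported here.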

Additional observations from a re-analysis of the deposited data

Results flagged for a closer look

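The effect of strain background on Kcnk1, a tandem-pore leak channel gene, differed between astrocytes and neurons by a test of the difference itself, an interaction term in edgeR with the library as block. The log2 fold change (BALB/c background against C57J) was -2.32 in astrocytes and 0.15 in neurons, and their difference was -2.45 ± 0.21 (SE; adjusted p = 0.0351). The adjusted p was 1 without C57J 1 and 0.546 without C57J 2, each of which leaves a single C57J library.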

How the results depend on the processing

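Libraries of the 2 backgrounds were not paired, as the labels name no pairs. The interaction test used the library as block. Of the values of single genes under all alternatives, 125 kept their direction and their side of the threshold. Another 7 passed it only under the alternative, 6 lost it and 0 reversed. The 125 include class levels that carry no test, such as Kcna1 in OLs, and values that stayed uncalled, such as Kcnj10 in astrocytes. The values that lost it include those of Kcnk9 in LS neurons and Kcnq3 in striatal neurons, the genes called between backgrounds. The count of Kcn genes called in neurons, 0, became 3 with DESeq2, 1 with no filter on low counts and 1 with the adjusted p alone, and 0 to 2 on leaving out a library. In LS neurons the count of 1 became 2 with the adjusted p alone and 0 to 1 without a library. In striatal neurons the count of 1 became 6 with no filter and 0 to 7 without a library, 0 without C57J 1 and 7 without nude. In astrocytes the count of 0 became 1 with DESeq2, 1 with no filter and 0 to 14 without a library, in OLs 0 to 17, in OPCs 1 with no filter and 0 to 8, and in microglia 0 to 17. The highest of these counts in all 4 glial classes came without nude, which leaves BALB/c, the library with the lowest neuron markers in glia, alone against C57J, and Kcnj10 was then called in astrocytes (log2 fold change 0.81, adjusted p = 0.0241, edgeR). Of neuron types, 2 genes met the 2 times rule with the mean over nuclei and 0 at resolution 2, against 4. Leaving out striatal neurons, chosen after seeing the data, kept 0 calls in neurons. Among all genes, the 360 calls in neurons became 746 with DESeq2, 776 with no filter and 55 to 1403 without a library, and in LS neurons 423 became 652, 865 and 47 to 1004. In striatal neurons 68 became 393 with no filter and 30 to 323 without a library. In astrocytes 8 became 97 with DESeq2, 276 with no filter, 24 with doublets kept and 0 to 597 without a library. In OLs 1 became 82, 226, 6 and 0 to 780, and 9 with stricter limits. In OPCs 46 became 175 with no filter and 38 to 388. In microglia 0 became 16, 85, 6 and 0 to 1181. The cause was not tested. Depth limits microglia, where 3 UMIs are 3.73 to 5.81 CPM, and neuroblasts more, where they are 5.84 to 15.1 CPM. In neuroblasts of C57J 2 and nude, 3 UMIs alone pass 10 CPM (11.9 and 15.1 CPM).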

Other observations

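Kcnj8 and its partner Abcc9, which encode the pore and the regulatory subunit of the ATP-sensitive channel of vascular cells, were counted in the vascular nuclei, of which there were 57 with predicted doublets removed (4 to 31 per library, too few for levels) and 164 with predicted doublets kept. The values below are those with doublets kept. Kcnj8 had 28 UMIs, or 69.3 CPM (95% exact Poisson interval 46.1 to 100.2), with 62.9, 49.9, 27.7 and 95.3 CPM in C57J 1, C57J 2, nude and BALB/c. Abcc9 had 201 UMIs, or 497.6 CPM (431.2 to 571.4). As Abcc9 was among the marker genes used to name vascular nuclei, its level there was partly set by that naming. In neurons Kcnj8 was at 0.0119 to 0.0783 CPM.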
